A study of Mus musculus with 4 samples.

Results

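The Pax genes, Pax1 to Pax9, are the 9 mouse genes for transcription factors with a paired DNA-binding domain, taken here by symbol from 22367 protein-coding genes of the GENCODE vM1 annotation. They have 82 annotated transcripts with 63 distinct transcription start sites, out of 70051 start sites of all protein-coding genes. Starts of 1 gene at most 1 kb apart were joined into 29 start regions, and Pax6 alone has 29 of the 63 starts. Chromatin immunoprecipitation with sequencing (ChIP-seq) gave 4 libraries from E14TG2a.4 mouse embryonic stem cells, which grow without feeder cells, here on gelatin with serum and LIF. Both Jarid1b libraries came from cells labelled E14 ESCs and used the antibody named Jarid1b-DAIN, and their labels do not say whether these cells carried a virus. Both H3K4me3 libraries used the rabbit monoclonal antibody C42D8. The scramble library came from cells transduced with a pLKO.1 lentivirus with a scrambled short hairpin RNA (shRNA), and the knockdown library from cells transduced with the same vector carrying a Jarid1b shRNA. Transduced cells were selected with puromycin. The shRNA sequence, the number of hairpins and the remaining Jarid1b level are not given in the sources used here.

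Jarid1b, encoded by Kdm5b, is an enzyme that demethylates lysine 4 on histone H3. Trimethylation of that lysine (H3K4me3) marks starts of active genes, and in embryonic stem cells it also lies at lower level, together with Polycomb marks, on CpG-rich starts of developmental genes. Many Pax genes are classic genes of that second kind, though the gene-level starts of Pax4 and Pax8 are poorer in CpG than the rest. As a family, Pax genes are off or low in stem cells and later set up organs and neural regions. By sequence they fall into pairs and a trio. Pax1 and Pax9 pattern the sclerotome, the somite part that forms vertebrae, and the pharyngeal pouches. Pax2, Pax5 and Pax8 act at the midbrain-hindbrain boundary and in kidney, B cells and thyroid. Pax3 and Pax7 act in dorsal neural tube, neural crest and muscle precursors. Pax4 and Pax6 act in endocrine pancreas, and Pax6 also in eye and forebrain. The question was where Jarid1b lay on these genes and how their H3K4me3 differed between scramble and knockdown cells.

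The sequences before the starts show what kind of promoter each value belongs to. They are 300 bases ending 1 base before a start, read from NCBIM37, the assembly behind the mm9 build of the deposited reads, and written 5′ to 3′ on the gene's strand with each CpG in capitals. The CpG count was taken as the motif CG, which reads the same on both strands. No exon of the GENCODE vM1 annotation lies in the stretches shown. They cover the 3 gene-level starts with the highest knockdown signal (Pax2, Pax3, Pax7), internal starts of Pax1 and Pax5, and Pax4 as the CpG-poor member. The internal starts are those with most H3K4me3 reads of the gene, summed over both libraries.

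Pax2, gene-level start, chr19:44830239-44830538, plus strand: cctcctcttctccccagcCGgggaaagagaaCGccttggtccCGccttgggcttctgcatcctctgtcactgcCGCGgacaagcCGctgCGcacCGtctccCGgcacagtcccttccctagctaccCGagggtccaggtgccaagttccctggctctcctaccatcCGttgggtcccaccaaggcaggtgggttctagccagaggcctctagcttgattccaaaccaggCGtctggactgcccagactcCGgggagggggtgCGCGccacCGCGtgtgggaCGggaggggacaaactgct
Pax3, gene-level start, chr1:78193710-78194009, minus strand: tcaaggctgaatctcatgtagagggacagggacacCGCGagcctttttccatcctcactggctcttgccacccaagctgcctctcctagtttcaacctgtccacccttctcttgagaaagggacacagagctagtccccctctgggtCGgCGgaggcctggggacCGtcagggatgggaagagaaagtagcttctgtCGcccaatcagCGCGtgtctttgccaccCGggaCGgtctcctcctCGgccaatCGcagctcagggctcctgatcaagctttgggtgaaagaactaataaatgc
Pax7, gene-level start, chr4:139389446-139389745, minus strand: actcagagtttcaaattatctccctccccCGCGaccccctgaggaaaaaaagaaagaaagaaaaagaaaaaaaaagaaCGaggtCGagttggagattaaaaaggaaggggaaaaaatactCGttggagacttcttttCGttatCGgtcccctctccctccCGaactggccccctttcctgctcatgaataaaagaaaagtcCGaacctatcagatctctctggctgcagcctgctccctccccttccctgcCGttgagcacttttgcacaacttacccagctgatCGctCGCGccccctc
Pax1, internal start, chr2:147190430-147190729, plus strand: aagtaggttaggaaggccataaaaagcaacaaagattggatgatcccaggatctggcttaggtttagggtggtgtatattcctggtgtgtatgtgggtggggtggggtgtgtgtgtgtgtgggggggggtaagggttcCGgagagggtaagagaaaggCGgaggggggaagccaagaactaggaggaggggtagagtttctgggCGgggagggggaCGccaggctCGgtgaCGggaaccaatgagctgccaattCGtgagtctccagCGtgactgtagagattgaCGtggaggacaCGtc
Pax5, internal start, chr4:44716879-44717178, minus strand: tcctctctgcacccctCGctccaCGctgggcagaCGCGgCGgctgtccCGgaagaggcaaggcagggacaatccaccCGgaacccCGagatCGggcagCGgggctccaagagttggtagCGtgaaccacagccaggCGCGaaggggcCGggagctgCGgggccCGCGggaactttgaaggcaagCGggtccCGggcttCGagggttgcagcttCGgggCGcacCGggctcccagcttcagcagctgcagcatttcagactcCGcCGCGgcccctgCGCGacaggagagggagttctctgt
Pax4, gene-level start, chr6:28399354-28399653, minus strand: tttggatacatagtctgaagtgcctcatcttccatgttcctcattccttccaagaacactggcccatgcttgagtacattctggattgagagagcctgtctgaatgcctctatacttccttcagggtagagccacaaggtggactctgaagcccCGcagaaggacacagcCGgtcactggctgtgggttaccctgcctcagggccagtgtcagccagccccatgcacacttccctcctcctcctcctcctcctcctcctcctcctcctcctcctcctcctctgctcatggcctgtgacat

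The Pax5 internal stretch held 28 CpG and the Pax2 stretch 18, while Pax4 held 2. Pax7 held 13, Pax3 held 12 and the Pax1 internal stretch 10. Over the same 300 bases before the start of all 22367 genes the median was 9 CpG, with quartiles of 3 and 20, and 93.9% held at least 1. In the 2 kb window centred on the gene-level start, GC content ran from 45.6% at Pax4 to 62.7% at Pax2. The observed over expected CpG ratio of the same windows was 0.108 at Pax4 and 0.263 at Pax8, and between 0.479 and 0.651 at the other 7 genes. Over all genes the medians were 51.1% GC and a ratio of 0.468.

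Reads were counted in windows of 1 kb on each side of a start, after keeping 1 read per chromosome, strand and 5′ position. This left 4336767 reads for Jarid1b replicate 1, 1602370 for replicate 2, 5158330 for scramble and 2635705 for knockdown, and levels are given as RPM, the reads per 1e+06 reads kept. The scramble library had 31.5% repeated rows and the knockdown library 7.56%, and with repeats kept the same number of Pax promoters was called higher (3), at log2 ratios of 2.99 for Pax2 and 2.72 for Pax7. The median over the Pax promoters then compared was 2.03, against 1.31 without repeats. The Jarid1b replicates shared 16.8% of the plus-strand positions of replicate 2, against a median of 1.76% at 24 other offsets. Their counts over 12603 promoters with 10 or more reads differed by little more than counting noise (chi-square per degree of freedom 1.15), so they were counted as 1 sample. Between the H3K4me3 libraries the value was 12.5 over 14701 such promoters. This measure grows with read number, and the median promoter held 31 and 25 H3K4me3 reads against 8 and 3 Jarid1b reads. The values 1.15 and 12.5 are therefore not a like comparison. H3K4me3 had 1 library per condition. No test between conditions was possible, and all intervals are 95% intervals for counting error only. The labelled cell type was checked on 8 stem cell marker promoters, of which 7 were enriched in scramble. The one not enriched, Esrrb, had 3 reads in scramble and 0 in knockdown. Summed stem cell marker H3K4me3 was 281 RPM in scramble and 207 RPM in knockdown, and Nanog, Tdgf1 and Zfp42 were called lower. With the trend of the ratio with GC content removed (described further on), these 3 lost the call, at -0.48, -0.46 and -0.50, and Pou5f1 was lower at -1.02, beside 0.354% of all compared promoters lower by that measure. Summed markers of other types were higher in knockdown for fibroblast (16.7 and 47.8 RPM over 4 genes), neural progenitor (8.53 and 23.9 over 3), primitive endoderm (8.34 and 17.5 over 4), trophoblast (4.65 and 9.11 over 3), neuron (18.4 and 25.8 over 3) and B cell (3.10 and 4.17 over 4). Single genes carried several of these sums. All 24 trophoblast knockdown reads were at Cdx2, 90 of 126 fibroblast ones at Twist1 and 59 of 68 neuron ones at Tubb3. Among markers that went the other way were Elf5 (6 and 0 reads), Krt7 (1 and 0), Rbfox3 (2 and 0) and Neurod1 (24 and 9). Beside these sums, the median log2 ratio of all compared promoters was 0.41. Markers with 0 reads in knockdown included Ms4a1, Elf5, Krt7 and Rbfox3, and in scramble no marker was at 0. Whether a shift in cell types takes part in the Pax values was not tested, and a larger share of marked cells and more mark per cell cannot be told apart in bulk ChIP-seq.

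At the gene-level start, taken as the most upstream annotated start, Pax2, Pax3 and Pax7 had more H3K4me3 in knockdown than in scramble, and no Pax gene had less by the call used. A call needed a 2-fold ratio of RPM with an interval that excludes equality, at a window that was enriched in 1 library or both and held 20 or more reads in all. By this rule 3 of the 5 Pax promoters that could be compared were higher, beside 24.0% of 13273 compared promoters of all genes, and 0 of 5 were lower, beside 2.37%. Of the 3, Pax7 was enriched in knockdown alone and entered the comparison only through that library. The median log2 ratio was 1.31 over the 5 Pax promoters and 0.41 over all compared promoters. H3K4me3 was enriched at 5 of 9 Pax promoters in scramble, beside 60.0% of all promoters, and at 4 of 9 in knockdown, beside 59.9%. These shares are near those of all promoters. Enrichment means more reads than both the genome rate and the rate of the flanking 10 kb give (one-sided exact Poisson test within a library, Benjamini-Hochberg adjusted p at most 0.05 over all promoters). The genome rate was 4.03 reads per window in scramble and 2.06 in knockdown. At Pax5, Pax6 and Pax9, for instance, the flanks of the gene-level window take in internal starts of the same gene, and reads there raise the background.

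**Figure D1:**
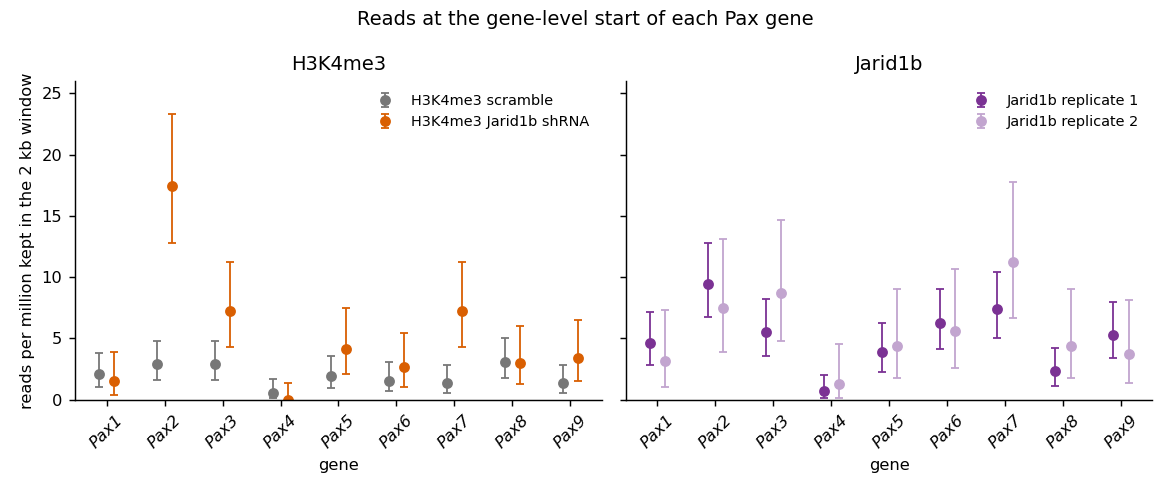
Reads in RPM (y axis) in the 2 kb window at the gene-level start of each Pax gene (x axis), for H3K4me3 (left) and Jarid1b (right). Points are single libraries and bars are 95% Poisson intervals of the count. Knockdown H3K4me3 of Pax2 stands at 17.5 RPM, the other 8 genes lie at or below 7.21 RPM in both H3K4me3 libraries, and Pax4 is the lowest gene in all 4 libraries.

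Pax2, needed for kidney and optic stalk, had the highest knockdown level of the family. Its gene-level window on chromosome 19 (start at 44830539, plus strand) held 15 reads in scramble (2.91 RPM) and 46 knockdown reads (17.5 RPM), a log2 ratio of 2.59 (interval 1.72 to 3.53). Jarid1b replicate 1 gave 41 reads there and replicate 2 gave 12. Both H3K4me3 libraries were enriched there, scramble 2.63-fold and knockdown 5.29-fold over background, and the RPM interval of knockdown lay above that of scramble. The window of the start 1.34 kb further on, which overlaps the first, held 12 and 50 reads (log2 ratio 3.03, interval 2.10 to 4.07), and 4 of 5 Pax2 starts were called higher. When the genome was searched in 1 kb bins, the 2 kb from 44830001 to 44832000 formed an enriched region in knockdown (67 reads) and none in scramble (16 reads). A second region lay at the 3′ end of Pax2, from 44910001 to 44912000, over coding and untranslated exons and the start of the overlapping gene 1700039E22Rik. It held 43 reads in scramble and 70 in knockdown and was enriched in both libraries, and the highest 500-base bin of the Pax2 locus lay in it in both libraries, 80.3 kb from the start, with 16 scramble and 37 knockdown reads. Reads there cannot be assigned to 1 of the overlapping genes. Upstream of Pax2, bins centred at -14.0 and -9.04 kb from the start were enriched in knockdown alone, with 3 scramble and 13 knockdown reads in the first and 7 and 16 in the second.

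Pax5, a factor that commits cells to the B lineage, had more H3K4me3 reads at an internal start than at the gene-level start in both libraries. At the gene-level start on chromosome 4 (44724318, minus strand) there were 10 reads in scramble and 11 in knockdown (log2 ratio 1.11, interval -0.27 to 2.50). This window was enriched in scramble (2.38-fold) and not in knockdown, and the ratio was not called. Its knockdown background of 6.8 reads came from flanks that hold the internal start. At the start 7.44 kb downstream (44716878), which follows the 28-CpG stretch printed above, there were 17 and 43 reads (log2 ratio 2.31, interval 1.47 to 3.21). The internal start was higher in knockdown by the call, but the difference between the 2 starts was 1.20 with an interval of -0.47 to 2.85, which includes no difference. All 16 Pax5 transcripts start at 7 sites, of which 3 could be compared and 2 were called higher. The summit of the locus was the same 500-base bin in both H3K4me3 libraries, 7.25 kb downstream of the gene-level start, with 7 scramble reads and 26 knockdown reads. B cell markers were not enriched in either library (0 of 4), beside 60.0% of all promoters in scramble and 59.9% in knockdown. Their median observed over expected CpG ratio was 0.165, against 0.825 in the window of the Pax5 internal start. Whether CpG content takes part in this was not tested. Of the lineage genes counted further on, Ebf1 (29 and 20 reads) and Ikzf1 (45 and 87) were enriched in both libraries, and Blk in neither.

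Pax8, which drives thyroid and kidney genes, was the trio member with no call. Its gene-level window on chromosome 2 (24331119, minus strand) held 16 scramble reads (3.10 RPM) and 8 knockdown reads (3.04 RPM), a log2 ratio of -0.03 (interval -1.46 to 1.28). The start 0.502 kb further on held 18 and 14 reads (0.61, interval -0.51 to 1.70). None of the 5 Pax8 starts that could be compared was called in either direction. The 2 libraries differed in place: the bin just downstream of the gene-level start, with internal starts in it (24330001 to 24331000), was enriched in scramble with 14 reads against 5, and the bin after it (24329001 to 24330000) in knockdown with 16 reads against 5. A window of 2 kb on each side takes in both bins and gave a log2 ratio of 1.15, called higher, so the value for Pax8 depends on the window.

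Pax3 and Pax7, the neural crest and muscle pair, were both called higher at the gene-level start. Pax7 (chromosome 4, 139389445, minus strand) held 7 scramble reads (1.36 RPM) and 19 knockdown reads (7.21 RPM), a log2 ratio of 2.41 (interval 1.10 to 3.90). The Pax7 window was enriched in knockdown alone (4.63-fold), so it entered the comparison only through the library in which it was higher. Pax3 (chromosome 1, 78193709, minus strand) held 15 scramble reads (2.91 RPM) and 19 knockdown reads (7.21 RPM), a log2 ratio of 1.31 (interval 0.26 to 2.39). Both reached the same knockdown count from different scramble counts. All 3 Pax3 starts and both Pax7 starts were called higher, and since they lie within 1 kb of each other they count largely the same reads. The Pax3 call was lost when libraries were scaled to the median ratio of all promoters (log2 ratio 0.90), and the Pax7 call was not. In Pax7 an intronic bin 11.9 kb downstream of the start was enriched in knockdown (6 scramble and 13 knockdown reads) and in Jarid1b replicate 1 (18 reads). A further intronic bin 23.9 kb downstream held 7 knockdown reads and 0 scramble reads. Over the whole gene, Pax7 had 178 reads in scramble and 176 in knockdown (log2 ratio 0.95, interval 0.64 to 1.26), and Pax3 had 113 and 66 (0.19, interval -0.27 to 0.64).

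Pax1 and Pax9, the sclerotome pair, resembled Pax5 in carrying the knockdown signal downstream of the gene-level start. At the Pax1 gene-level start (chromosome 2, 147187661, plus strand) there were 11 scramble and 4 knockdown reads, too few to compare. At the start 3.07 kb downstream (147190730) there were 8 and 21 reads, a log2 ratio of 2.36 (interval 1.13 to 3.75). The internal start passed the enrichment test in knockdown and the gene-level start in scramble. The difference between the 2 ratios is not given, since the gene-level window held under 20 reads. At Pax9 (chromosome 12, 57792754, plus strand) the gene-level window held 7 and 9 reads and was enriched in neither library. Its background, 5.9 scramble and 8.5 knockdown reads, came from flanks that hold the internal start. The start 3.96 kb downstream (57796716) held 14 and 26 reads (log2 ratio 1.86, interval 0.87 to 2.91). The Pax9 signal peaked beyond that start, in a stretch with coding exon. The 2 kb from 57797001 to 57799000 held 19 reads in scramble and 48 in knockdown (log2 ratio 2.31, interval 1.51 to 3.15). Summed over its 21.1 kb, Pax9 had 40 reads in scramble and 80 in knockdown, a log2 ratio of 1.97 (interval 1.40 to 2.55) and the largest of the 9 gene bodies. The Pax1 gene body held 53 reads in each library (log2 ratio 0.97, interval 0.39 to 1.55).

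**Figure D2:**
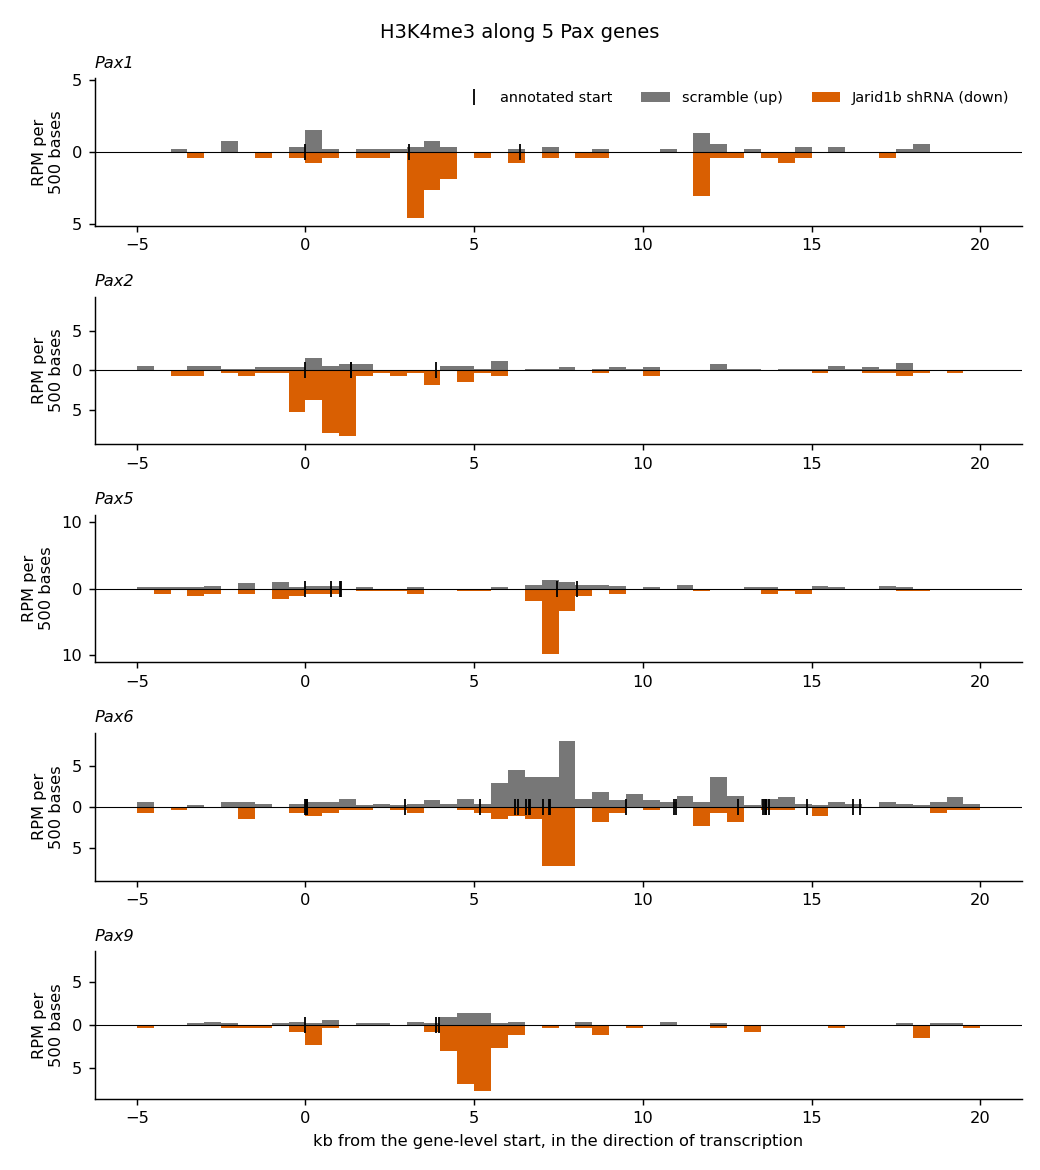
H3K4me3 in RPM per 500-base bin (y axis; scramble drawn upward, knockdown downward) from 5 kb before to 20 kb after the gene-level start (x axis, kb in the direction of transcription), with annotated starts as ticks. Knockdown signal lies at the first starts of Pax2 and at internal starts of Pax1, Pax5 and Pax9, while Pax6 shows scramble signal of 7.95 RPM in the bin at 7.75 kb.

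Pax6, the eye and forebrain regulator, had the most scramble H3K4me3 of the family, and it lay at internal starts. At its gene-level start (chromosome 2, 105509053, plus strand) there were 8 scramble and 7 knockdown reads, and H3K4me3 was enriched in neither library. The background there, 20.6 scramble and 8.1 knockdown reads, came from flanks that hold internal starts. At the start 7.05 kb downstream (105516103) there were 102 reads in scramble (19.8 RPM) and 45 in knockdown (17.1 RPM), a log2 ratio of -0.21 (interval -0.75 to 0.31). This was the highest scramble count at any Pax start. The interval includes equality as scaled here, but with the GC trend removed the log2 ratio was -0.70 (interval -1.24 to -0.18), which excludes it, and scaling to the median of all promoters would lower the ratio by 0.41. Within that stretch 1 start at 6.21 kb (105515266) was called lower, with 62 reads in scramble and 13 in knockdown (log2 ratio -1.29, interval -2.27 to -0.41). Between 105515001 and 105517000, 38 of 47 knockdown reads and 55 of 100 scramble reads lay in the last 1 kb. Further bins, 12.4 and 21.4 kb downstream, were enriched in scramble only, with 26 against 7 and 15 against 3 reads. Over the whole gene Pax6 had 299 scramble reads, 4.33 times the genome rate, and 110 knockdown reads, a log2 ratio of -0.47 (interval -0.80 to -0.15). It was the one Pax gene whose gene-body interval lay below 0. The other gene bodies had log2 ratios of 0.19 to 1.97.

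Pax4, an endocrine pancreas factor and the CpG-poor member, gave no H3K4me3 value to compare. It held 3 scramble reads and 0 knockdown reads at the gene-level start (chromosome 6, 28399353, minus strand). A count of 0 allows up to 3 reads, 1.14 RPM in the knockdown library, so no ratio is given. None of its 4 starts was enriched in any library. Regions near Pax4 at 28373001 to 28375000 belong to starts of Arf5 and Gcc1. A nearer bin, from 28401001 to 28402000 upstream of the Pax4 start and in no annotated gene, was enriched in scramble with 9 reads, and held 5 in knockdown.

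The choice of start moved the family count. With the start that had most H3K4me3 reads over both libraries taken for each gene, 8 Pax genes could be compared, 6 were higher (Pax1, Pax2, Pax3, Pax5, Pax7 and Pax9), beside 23.9% of all genes treated in the same way, and 0 were lower, beside 2.37%. Their median log2 ratio was 2.08, and that of all genes 0.41. This choice of start uses the H3K4me3 reads themselves. At Pax1 and Pax7 the start taken was enriched in knockdown alone, the library in which it was higher. Over all 63 starts, 29 could be compared, 14 were higher, beside 21.2% of all start sites, and 1 was lower, beside 2.90%. These starts share reads and are not independent. Against the Pax6 start at 7.05 kb, log2 ratios were higher by 3.24 at Pax2 (interval 2.14 to 4.41), 2.57 at Pax1 (1.20 to 4.05), 2.52 at Pax5 (1.499 to 3.57), 2.50 at Pax7 (1.12 to 3.99), 2.07 at Pax9 (0.92 to 3.25) and 1.52 at Pax3 (0.32 to 2.73). Pax8 differed from it by 0.82, with an interval of -0.44 to 2.04 that includes no difference. These were 7 of 11 pairs set side by side, the intervals cover counting error and are not adjusted for that number, and Pax6 was taken as the reference after its values were seen.

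**Figure D3:**
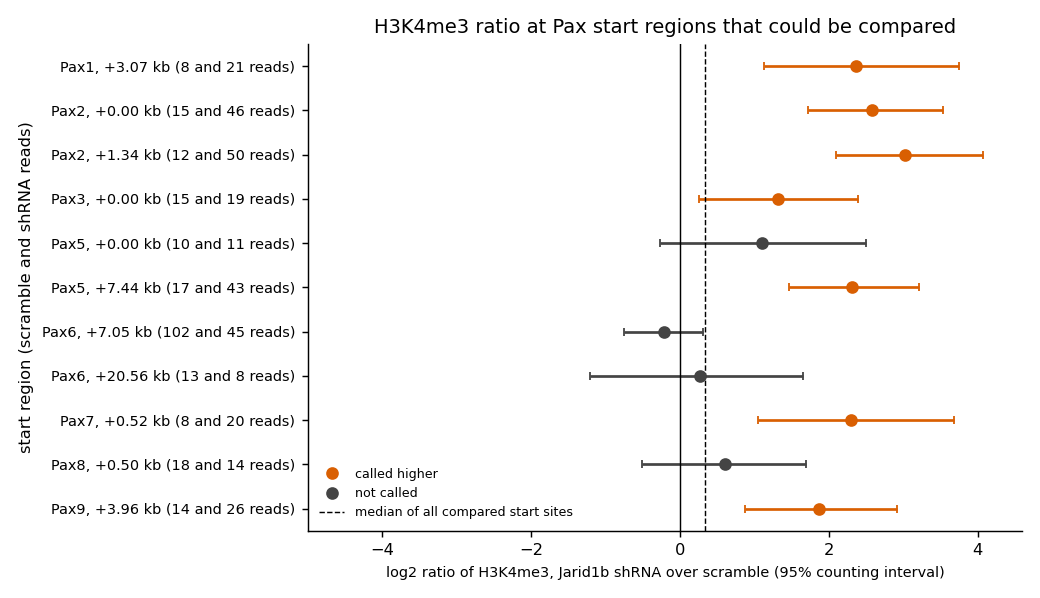
Log2 ratio of H3K4me3 RPM, knockdown over scramble (x axis), at the 11 Pax start regions that could be compared (y axis, with kb from the gene-level start and reads). Bars are 95% counting intervals of single libraries and the dashed line is the median of all compared start sites, 0.34. Each region is drawn at its start with most H3K4me3 reads, and the windows of the Pax2 regions drawn overlap. Of the 11, 7 are called higher, beside 21.2% of all compared start sites, which were not picked by their reads. The interval of Pax6 at 7.05 kb spans -0.75 to 0.31, and a start of the same region at 6.21 kb, not drawn, was called lower. Among the called regions, those of Pax1 and Pax7 were enriched in knockdown alone.

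The H3K4me3 ratio was also followed against GC content, since Pax2 and Pax7 are the GC-richest windows of the family. In 1 kb background bins away from starts, mean knockdown reads went from 0.348 at 37.5 to 40% GC to 3.12 above 60% GC, and mean scramble reads from 0.982 to 3.55. With the trend of the ratio with GC content over all promoters removed, the same 3 of 5 were called higher, beside 18.2% of all compared promoters, at 1.85 for Pax2, 1.89 for Pax7 and 1.36 for Pax3, and the median of the 5 was 1.36. Scaling to reads in bins away from starts would move every log2 ratio up by 0.26, and scaling to the median of all promoters would move it down by 0.41. At Pax2 and Pax7 neither scaling changed the call.

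Jarid1b was called where both libraries passed the same Poisson test. This held at 3 of 9 gene-level promoters (Pax3, Pax7 and Pax8), beside 7.97% of all promoters. Pax3 had 24 reads in replicate 1 and 14 in replicate 2, 3.08-fold and 5.38-fold over background (exact Poisson test, Benjamini-Hochberg adjusted p = 4.98e-05 and 8.74e-05). Pax7 had 32 and 18 reads, 2.74-fold and 2.86-fold (exact Poisson test, adjusted p = 1.76e-05 and 0.00301). Pax8 had 10 and 7 reads, 2.56-fold and 5.38-fold (exact Poisson test, adjusted p = 0.0302 and 0.00759). The calls rest on few reads, and since the libraries share positions they are not independent evidence. With 500 bases on each side Pax3 kept its call, and Pax7 and Pax8 lost theirs. The less deep replicate set the count: replicate 1 alone passed at 7 of 9, beside 26.8% of all promoters, and replicate 2 alone at 3 of 9, beside 10.7%.

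Pax2 had the most reads in Jarid1b replicate 1, with 41 there and 12 in replicate 2 (2.52-fold and 2.03-fold), and passed in replicate 1 but not in replicate 2 (exact Poisson test, adjusted p = 6.05e-06 and 0.107). Pax6 showed the same split, with 27 and 9 reads (2.57-fold and 2.25-fold, exact Poisson test, adjusted p = 0.000203 and 0.122). Pax1 had 20 and 5 reads (2.67-fold and 2.38-fold) and Pax9 had 23 and 6 (2.40-fold and 1.40-fold), and again passed in replicate 1 alone. Pax5 passed in neither library with 17 and 7 reads (1.79-fold and 2.06-fold), nor did Pax4 with 3 and 2 (0.625-fold and 1.25-fold). So 6 of 9 lay above 2-fold in both libraries, beside 21.1% of all promoters, and Pax4 was the one gene below background in a library.

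**Figure D4:**
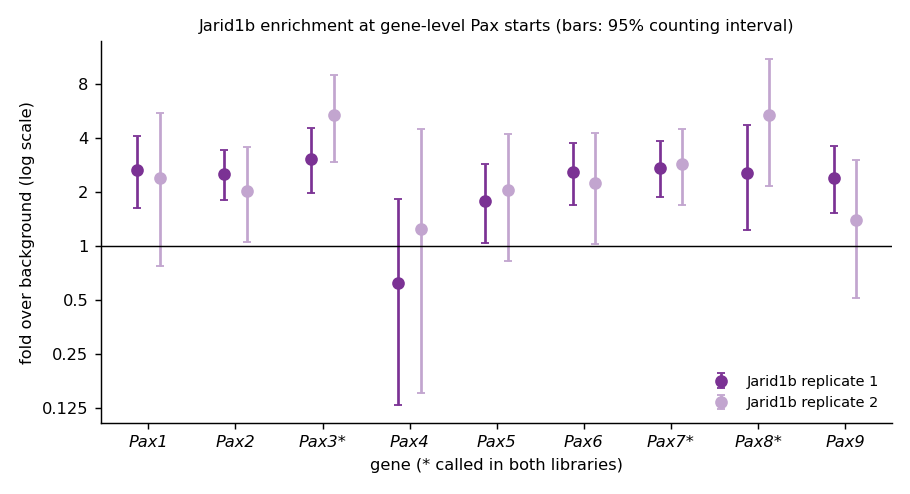
Jarid1b reads over background (y axis, log scale) at the gene-level start of each Pax gene (x axis) in replicate 1 and replicate 2, with 95% Poisson intervals of the count. Pax3, Pax7 and Pax8 (stars) are called in both libraries, and Pax4 is at 0.625-fold in replicate 1.

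Over the genome or flank rate, Jarid1b was also high at the internal starts that carried H3K4me3. The Pax5 internal start held 30 and 12 Jarid1b reads (3.85-fold and 4.29-fold), against 17 and 7 at the gene-level start. The Pax9 start at 3.96 kb held 29 and 14 reads (3.67-fold and 4.38-fold), and the Pax6 start at 7.05 kb held 24 and 12 (1.98-fold and 3.16-fold). The Pax1 internal start held 24 and 4 and passed in replicate 1 alone. At the start with most H3K4me3 reads, 7 of 9 Pax genes were called for Jarid1b (all but Pax1 and Pax4), beside 9.65% of all genes treated in the same way. Over all starts 19 of 63 were called, beside 6.53%, with none at Pax1 or Pax4. In the 1 kb bins the Pax9 region at 57797001 to 57799000 was enriched for Jarid1b replicate 1 (40 reads) in the same bins as knockdown H3K4me3. At Pax6 the Jarid1b bin was the gene-level start (17 reads in replicate 1), where H3K4me3 was enriched in neither library.

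Jarid1b reads moved with GC content too: in the background bins the mean of replicate 1 went from 1.06 reads at 37.5 to 40% GC to 5.57 above 60% GC. Against a background of bins with the same GC content, where larger than the other rates, 2 of 9 gene-level promoters were called, Pax3 and Pax7, beside 0.563% of all promoters. Over starts, 6 of 63 were called, at Pax3, Pax7 and the internal starts of Pax9, beside 0.375% of all start sites. Over the mean of bins of the same GC content, folds at the Pax5 internal start were 2.69 and 2.73, against 2.20 and 2.31 at its gene-level start. The same pairs were 3.30 and 4.06 against 2.97 and 1.98 at Pax9. At Pax6 they were 2.43 and 3.07 against 3.49 and 2.96, and at Pax1 2.43 and 1.02 against 2.98 and 1.93.

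The genes next to the Pax genes were counted in the same way. Of the 18 nearest protein-coding genes on the 2 sides, 3.71 to 650 kb away, 13 could be compared, 5 were higher and 0 lower, beside 24.0% and 2.37% of all compared promoters, with a median log2 ratio of 0.20. The 5 were Nkx2-2 (2.03, interval 0.94 to 3.22) and Foxa2 (1.97, 0.66 to 3.40) beside Pax1, Sgpp2 (1.82, 1.02 to 2.67) beside Pax3, Rcn1 (1.06, 0.60 to 1.52) beside Pax6, and Nkx2-9 (1.31, 0.38 to 2.26) beside Pax9. Nkx2-2, Foxa2 and Nkx2-9 are themselves developmental transcription factors. Foxa2 was enriched in knockdown alone and entered the comparison only through that library. The neighbours of Pax2 were not called: Hif1an had -0.18 (interval -0.78 to 0.40) and Fam178a -0.15 (-0.61 to 0.29). Jarid1b was called at 2 of 18, Cacna1b and Nkx2-9, beside 7.97% of all promoters.

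Partner genes, among them Six2, Eya1, Eya4, Dach1 and Dach2, encode factors that work with Pax proteins in kidney, muscle and eye. Of 12 such genes, 10 were enriched for H3K4me3 in both libraries and could be compared, 5 were higher and 0 lower, beside 24.0% and 2.37% of all compared promoters, and the median log2 ratio was 0.85. With the GC trend removed 2 of 10 were higher, beside 18.2%, and the median was 0.65. Six2, which maintains kidney progenitors, had 15 reads in scramble and 31 in knockdown (2.02, interval 1.08 to 3.01), and lost the call with the GC trend removed (0.94). The lowest were Dach2 with 36 and 11 reads (-0.74, -1.86 to 0.26) and Eya1 with 43 and 18 (-0.29, -1.17 to 0.54), neither called. Jarid1b was called at 3 of 12, beside 7.97% of all promoters, and at 1 of 12 against a background of the same GC content, beside 0.563%. Eya4 had the highest fold, 7.67 and 10.4 (26 and 13 reads), but was not called against the background of the same GC content, and Dach1 had 5.01 and 3.99 but passed in replicate 1 alone.

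Of 39 genes of the lineages in which Pax factors act (kidney, thyroid, muscle, neural crest, eye, pancreas, B cell and skeleton), 24 could be compared, 19 were higher and 0 lower, beside 24.0% and 2.37% of all compared promoters, with a median of 1.58. With the GC trend removed 12 of 24 were higher, beside 18.2%, with a median of 1.10. Uncx, a sclerotome gene, had 1 scramble read and 24 knockdown reads (log2 ratio 5.55, interval 2.94 to 10.9, on 1 scramble read), and Msx1 had 7 and 36 (3.33, 2.14 to 4.74). Uncx, Msx1 and Foxc2, all counted as higher, were enriched in knockdown alone. They entered the comparison only through the library in which they were higher. The lowest were the pancreas and neuron factors Neurod1 with 24 and 9 reads (-0.45, -1.74 to 0.71) and Neurog3 with 20 and 8 (-0.35, -1.75 to 0.89), neither called. Jarid1b was called at 9 of 39, beside 7.97% of all promoters, and at 2 of 39 against a background of the same GC content, beside 0.563%, with the highest folds at Ikzf1 (4.75 and 3.19, passing in replicate 1 alone) and Gdnf (3.04 and 5.83, called). Gdnf is the ligand that starts ureteric bud growth downstream of Pax2. No value here ties a lineage gene to a Pax gene, and the lists were chosen with results of these data known.

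**Figure D5:**
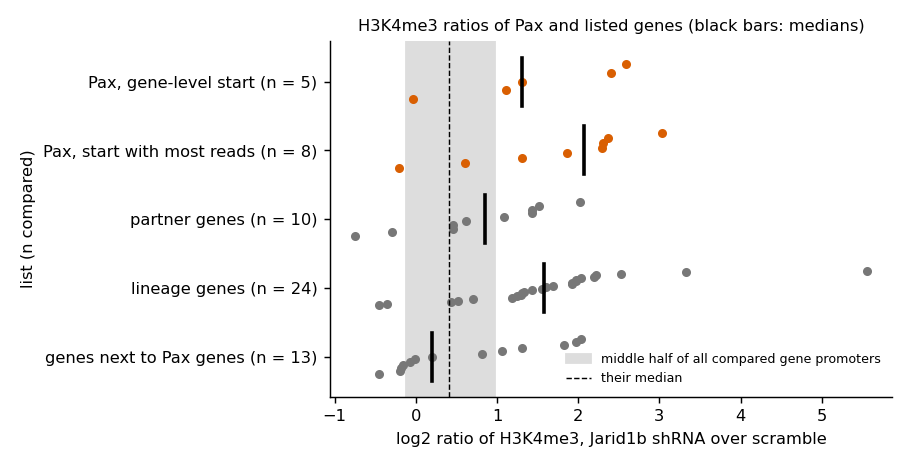
Log2 ratio of H3K4me3, knockdown over scramble (x axis), for compared Pax genes at 2 choices of start, partner genes, lineage genes and genes next to Pax genes (y axis, with n compared). Points are promoters, black bars medians (1.31, 2.08, 0.85, 1.58 and 0.20 from top to bottom), and the grey band spans the quartiles of all compared promoters, -0.12 to 0.98.

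Over the 4 libraries together, the promoters nearest to Pax2 by Euclidean distance of log2(RPM + 0.5) were Fev (distance 0.287), Tmem132e (0.380) and Hoxd8 (0.386). Fev, a serotonin neuron factor, held 37 and 12 Jarid1b reads, 17 scramble reads and 40 knockdown reads. Hoxd8, a body axis factor, held 36, 14, 12 and 47 in the same order, and Tmem132e 37, 15, 16 and 41. These 3 were chosen by likeness over all 4 libraries, so their sharing the H3K4me3 difference of Pax2 follows from that choice.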

How the data were processed

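The 4 files the authors deposited hold 1 row per aligned read, with the score column at 0 in every row of the deposited tables. Per the submitters' processing notes, reads were mapped to mm9 with Bowtie. The labels' protocols also name removal of repeated positions, MACS and IgG, but the deposited rows still repeat positions, and no peak list or IgG library was used here. The deposited start and end positions, of no further unit, were the values counted.

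Reads with the same strand and 5′ end were collapsed to 1 on chromosomes 1 to 19, X and Y, and ends were shifted by 75 bases towards the fragment centre. Background was the genome rate or the rate in the 10 kb beyond each side of a window, whichever was larger. Poisson p-values were adjusted over 22367 gene promoters, or over 70051 starts, by the Benjamini-Hochberg method. H3K4me3 ratios of RPM carry exact Clopper-Pearson intervals conditional on the summed reads. With 1 H3K4me3 library per condition, these intervals cover counting error only. No molecular identifiers mark the reads. GC adjustment used 14 classes of background bins for Jarid1b and 20 groups of promoters for the ratio. The counting and the calls were tested on simulated data, with the same flat background in every library, 1 GC content and ratios scaled to their median. That test does not cover the unequal depths, the GC trend or the scaling to reads kept used here. Python 3.11.15, numpy 2.4.6, pandas 2.3.3 and scipy 1.17.1 were used.

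All Pax genes are named. Other genes were taken by rule: nearest neighbours, the 2 highest and 2 lowest ratios and 2 highest Jarid1b folds of the partner list (12 genes) and of the lineage list, and the 3 promoters nearest to the Pax promoter with most H3K4me3 reads. Not every gene taken by this rule is reported here. Members and lists were chosen with earlier results of these data known.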

Additional observations from a re-analysis of the deposited data

How the results depend on the processing

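Few reads limit these results: all 9 gene-level Pax windows held under 50 reads in each library. Of 77 recomputed family counts and medians, 61 stayed within 1.5 times or the spread of the first value. Gene-level Jarid1b calls moved from 3 to 1 at an adjusted p of 0.001, 1 with 500 bases on each side, 8 with the genome rate alone and 7 at the start with most H3K4me3 reads, and lay between 3 and 7 when 1 replicate was left out (7 without replicate 2). Calls over starts moved from 19 to 4 at 0.001, 6 with a background of the same GC content and 46 with the genome rate alone, with 31 without replicate 2 and 19 as the lowest value without replicate 1. Enrichment in scramble moved from 5 to 2 at 0.001 and 3 with 500 bases, and in knockdown from 4 to 7 with the genome rate alone and 8 at the start with most reads. Higher promoters moved from 3 to 1 with at least 50 reads and to 6 at the start with most reads, and higher starts from 14 to 9 with 500 bases. The median log2 ratio of 1.31 was 2.03 with repeats kept, 2.08 at the start with most reads, 2.00 with 500 bases and 2.59 with at least 50 reads, the last over 1 promoter. The Pax8 log2 ratio of -0.03 turned to 0.062 unshifted, 0.079 with repeats kept, 0.23 with background scaling, 0.55 with 500 bases and 1.15 with 2 kb. The mean Jarid1b fold of Pax4, 0.938, turned to 1.05 unshifted and 1.68 with 500 bases. The causes were not tested. No paired analysis was possible because H3K4me3 had 1 library per condition and the Jarid1b libraries had no second group.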
